A study of Mus musculus with 22 samples.

Results

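Nuclear receptors that set the metabolic programme of the liver were followed around the day in mice without adiponectin. Of 10 listed receptor genes (Hnf4a, Nr5a2, Nr1h3, Rxra, Esrra, Thrb, Ppard, Pparg, Nr2f2 and Nr1h4), taken by the gene symbol of the array annotation, 8 had a row in the value table, each with 1 feature, out of 19505 named genes in all. Esrra and Ppard were not analysed here. The members were chosen by name and not by their values, but with earlier results of these data known.

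The samples were 22 livers of male mice with a whole-body adiponectin knockout (B6;129-Adipoqtm1Chan/J on a C57BL/6J background), 3 to 8 months old. All mice had free access to chow, and the lights were on for 12 h of each day and off for 12 h. Each liver was hybridised to a Clariom S array. Zeitgeber time (ZT) counts the hours after lights on, and 4 arrays each stand for ZT2, ZT10, ZT14 and ZT22 and 3 each for ZT6 and ZT18. Every group carried the knockout. Wild-type mice are not analysed here, and all comparisons run between times of day within 1 genotype. The deposited values are read as log2 levels per gene, and a difference of 1 unit is then a doubling. Levels of different genes are set against each other only coarsely, as bright or dim or by rank, because each feature has its own probes.

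Nuclear receptors are transcription factors that bind DNA through zinc fingers and, in many cases, are switched by small lipid-soluble ligands. The retinoid X receptor RXRα (Rxra) is the shared partner of the oxysterol receptor LXRα (Nr1h3), the bile acid receptor FXR (Nr1h4), the thyroid hormone receptor TRβ (Thrb) and the fatty acid receptor PPARγ (Pparg), which bind DNA as heterodimers with it. HNF4α (Hnf4a), a keeper of hepatocyte identity, binds as a homodimer, LRH-1 (Nr5a2) binds as a monomer and regulates bile acid and cholesterol genes, and COUP-TFII (Nr2f2) is known from venous endothelium and mesenchyme as well as hepatocytes. The core motif that most of these receptors read is AGGTCA or a close variant of it.

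The arrays were checked against the labelled tissue. All 8 hepatocyte markers examined were bright (Alb had a mean of 19.80), while 4 of 5 adipocyte markers had a mean below the lower quartile of all features. One of these, Adipoq, is the gene knocked out in every mouse and checks nothing about the tissue, and the marker above that level was Fabp4 (7.26). By the secreted trefoil peptide Tff3, 5 arrays stood apart, at 10.35 to 13.63 in ZT6b, ZT6c, ZT14b, ZT14d and ZT22a against 2.31 to 4.73 in the other 17. The array is bulk tissue, so fewer cells of a type and less RNA per cell cannot be told apart.

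Every member was well expressed, and none of its values fell at or below the lower quartile of an array. The mean of Pparg stood at percentile 74.1 of all features, that of Thrb at percentile 88.85, and the other 6 members lay between percentile 92.3 for Nr2f2 and 95.7 for Hnf4a. Between the lowest and the highest time mean the levels differed by 1.25-fold in Nr5a2 and by 2.13-fold in Nr1h4, the other 6 members lying between these. In each member all 5 pairs of times that neighbour each other in the order of the means had overlapping or touching arrays. Such neighbours are the times closest in level. Between the highest and the lowest time the arrays overlapped in Nr1h3, Pparg and Nr2f2. They did not in Hnf4a, Nr5a2, Rxra, Thrb and Nr1h4. The share of all features with either pattern was not counted.

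**Figure D1:**
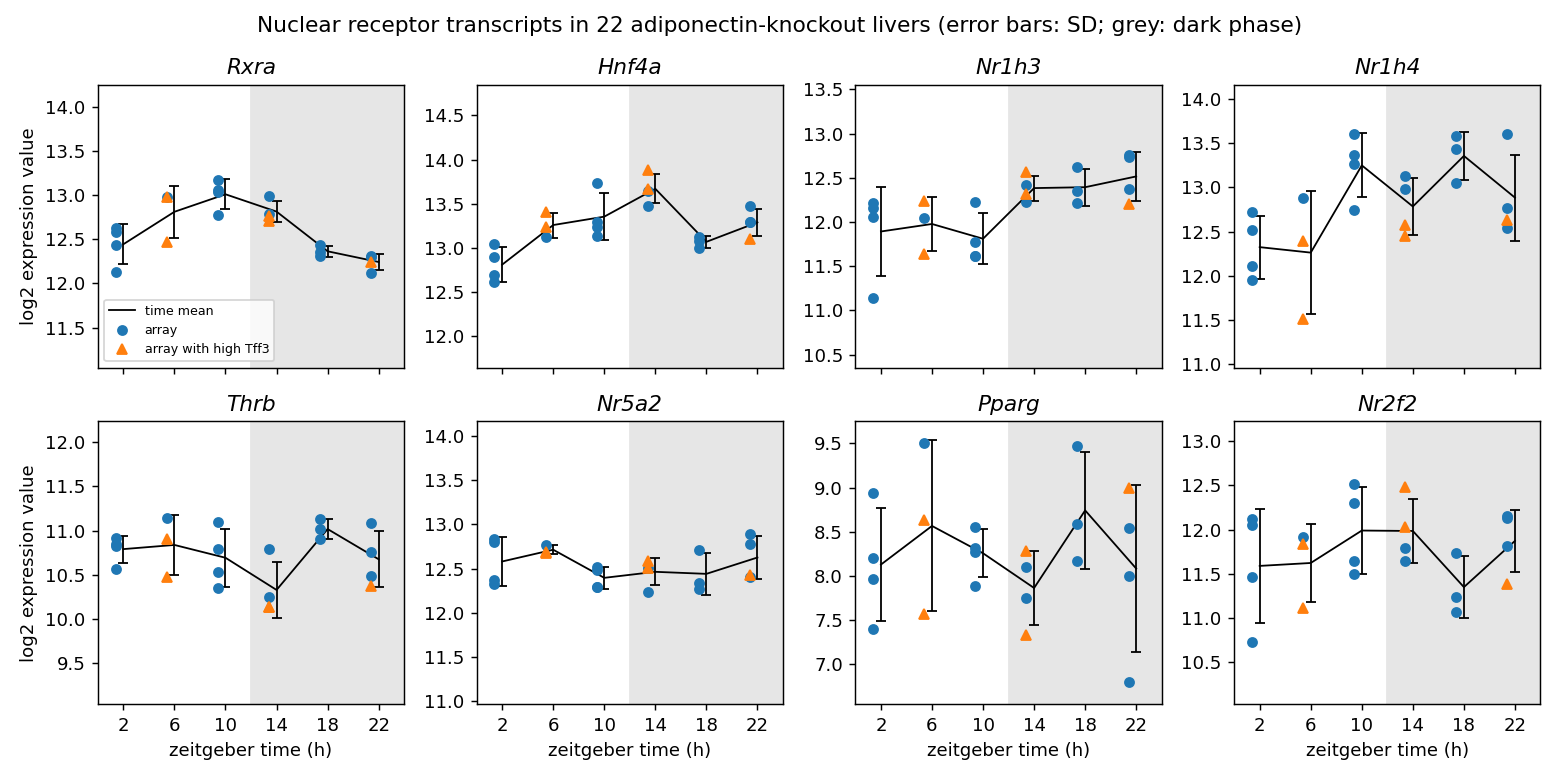
Log2 expression values of the 8 measured receptor genes against zeitgeber time in hours; points and triangles are single arrays (drawn slightly to the left of their time), triangles are the 5 arrays with high Tff3, the line joins the time means and bars are 1 SD. Every panel spans the same range of 3.2 log2 units, and Rxra falls from its ZT10 arrays (12.77 to 13.17) to its ZT22 arrays (12.12 to 12.31) without overlap.

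Rxra, the shared partner, was the 1 of 8 members called for a 24 h rhythm (limma's moderated F test of a cosine and sine, Benjamini-Hochberg adjusted p = 0.000577), where 7.62% of all features were called. It measured 12.58, 12.63, 12.13 and 12.43 at ZT2, 12.98, 12.47 and 12.98 at ZT6, and 13.17, 13.03, 13.06 and 12.77 at ZT10. In the dark phase it measured 12.99, 12.76, 12.79 and 12.71 at ZT14, 12.43, 12.35 and 12.31 at ZT18, and 12.24, 12.12, 12.30 and 12.31 at ZT22. Each array of ZT10 and of ZT14 thus lay above each array of ZT18, ZT22 and ZT2. The fitted peak fell late in the light phase, at ZT9.80 ± 0.65 h (SE, n = 22), with an amplitude of 0.39 ± 0.06 log2 units (SE), a 1.72-fold span from trough to peak. The time means ran from 12.24 ± 0.09 at ZT22 to 13.01 ± 0.17 at ZT10 (SD, n = 4 each), a 1.70-fold difference, and the F test of any difference among the 6 times passed as well (adjusted p = 0.0129). Without any single array the 24 h call of Rxra held, with an adjusted p of at most 0.00227 (limma), and without the 5 Tff3-high arrays it was 0.00223. Light minus dark was 0.28 ± 0.10 (SE), which missed the threshold (limma, adjusted p = 0.098).

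Rxra has RefSeq start windows at 2 places of chromosome 2. Both are shown because its transcript was the clearest rhythm of the group and its single feature does not tell the starts apart. The RefSeq span of the gene begins at 27676445, upstream of both windows, and starts outside the windows were not searched. RefSeq windows were found for all 8 members, and each runs from 250 bases before to 50 after the start on GRCm38.p6. The upstream window lies at chr2:27676951-27677250 (forward strand) and is rich in G and C (83.0%, with 55 CpG), against a median of 52.7% over the 32851 windows of all genes. The downstream window lies at chr2:27709042-27709341 (forward strand) and holds 54.3% G and C with 1 CpG. Capitals mark the core receptor motif AGGTCA or its reverse complement.

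Rxra upstream start: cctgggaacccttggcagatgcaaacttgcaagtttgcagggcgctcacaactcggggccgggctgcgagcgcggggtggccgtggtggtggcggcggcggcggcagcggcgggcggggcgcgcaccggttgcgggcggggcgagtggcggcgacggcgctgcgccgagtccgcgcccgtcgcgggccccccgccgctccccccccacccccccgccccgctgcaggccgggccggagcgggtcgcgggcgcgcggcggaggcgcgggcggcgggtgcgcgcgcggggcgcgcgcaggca

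Rxra downstream start: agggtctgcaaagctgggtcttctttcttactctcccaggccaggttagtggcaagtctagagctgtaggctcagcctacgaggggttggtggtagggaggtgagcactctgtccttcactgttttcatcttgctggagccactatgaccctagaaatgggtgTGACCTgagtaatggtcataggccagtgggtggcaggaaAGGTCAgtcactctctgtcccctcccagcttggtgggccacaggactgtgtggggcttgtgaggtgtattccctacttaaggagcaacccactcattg

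The downstream window holds AGGTCA on the reverse strand 87 bases and on the forward strand 48 bases before the start, and the upstream window holds none. This motif stands in 16.3% of all windows of this length. It also stands 214 bases before the start in the window of Nr1h4, 184 in 1 window of Thrb, 64 in 1 of Nr5a2, and 28 and 9 in a window each of Pparg. The other letters searched on both strands were the E-box CACGTG read by the clock activators, its variant CACGTT, the D-box TTATGTAA read by PAR bZIP factors such as Dbp, and 2 core motifs 1 base apart (AGGTCANAGGTCA, which itself contains the core motif). These stand in 7.15%, 4.68%, 0.938% and 0.0396% of all windows, and neither Rxra window has any of them. Among the windows of the 8 members, CACGTG stands in 1, of Thrb, 193 bases before the start. A match is a run of letters and no measured binding.

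The 3 named genes whose values over the 22 arrays were most like those of Rxra, among 9710 brighter genes compared, were Bri3 (Pearson r = 0.83), Dbp (r = 0.80) and P2ry2 (r = 0.80). These were picked as the highest and the arrays share the time of day, so the coefficients are a description. The fitted peaks of the 3 were at ZT10.5, ZT10.9 and ZT10.9. Their spans were 2.40-fold in Bri3, 348-fold in Dbp, the clock-driven transcription factor, and 2.92-fold in P2ry2, a nucleotide receptor, against 1.72-fold in Rxra.

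Among the partners of RXRα, Nr1h3 was higher in the dark phase. It measured 12.06, 12.16, 12.21 and 11.14 at ZT2, 12.05, 11.64 and 12.24 at ZT6, and 11.62, 11.77, 11.62 and 12.23 at ZT10. In the dark phase it measured 12.23, 12.32, 12.42 and 12.56 at ZT14, 12.35, 12.21 and 12.62 at ZT18, and 12.20, 12.73, 12.37 and 12.76 at ZT22. The means of the 3 light times (11.81 to 11.98) lay below those of the 3 dark times (12.38 to 12.515 at ZT22), although single arrays of the phases overlapped, with 12.24 the highest in the light and 12.20 the lowest in the dark. Light minus dark was −0.54 ± 0.13 log2 units (SE, n = 22), a 1.45-fold difference (limma, adjusted p = 0.0182). Nr1h3 was the 1 of 8 members called in this contrast, against 5.27% of all features and 9.25% of those above the median level. The call held without any single array (adjusted p from 0.0116 to 0.0489) but was lost without the 5 Tff3-high arrays, where the difference was about as large, −0.53 (adjusted p = 0.104). The cosine fit gave Nr1h3 a peak at ZT18.65 ± 0.95 h and a 1.67-fold span that just missed the threshold (adjusted p = 0.0525). It passed without the low array ZT2d (0.0244), and also without ZT6c (0.028), ZT10d (0.0454) or ZT18b (0.0461). Omitting any other single array left it uncalled.

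Resident macrophages, the Kupffer cells, also express LXRα. The summed level of their 9 markers had time means of 11.09, 10.73 and 10.99 in the light and of 10.67, 10.54 and 10.70 in the dark. Single arrays overlapped widely, from 10.53 to 11.56 at ZT10 and from 10.25 to 10.91 at ZT22, and the part of Kupffer cells in the Nr1h3 difference was not tested. Of these markers Cd5l was the 1 called for a 24 h rhythm, and it was higher in the light. It is also the brightest of the 9 (mean of 9.21) and weighs most in the sum. Its light minus dark was 0.71, against 0.04 in the next brightest, C1qa (mean of 8.36). Nr1h3 has 2 overlapping windows. The one at chr2:91195067-91195366 (reverse strand) (63.0% G and C) is shown as a start region of the member that differed between the phases. It holds none of the letters searched. The RefSeq span of the gene reaches upstream of it, to 91202829, and that stretch was not searched.

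Nr1h3 start: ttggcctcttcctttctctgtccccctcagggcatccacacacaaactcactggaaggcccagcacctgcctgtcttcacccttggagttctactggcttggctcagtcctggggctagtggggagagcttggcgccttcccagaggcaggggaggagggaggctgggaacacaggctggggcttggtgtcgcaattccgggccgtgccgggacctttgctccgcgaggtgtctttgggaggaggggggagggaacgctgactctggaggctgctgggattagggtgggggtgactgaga

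Of 9 measured targets of LXR, 3 were called for a 24 h rhythm, against 7.62% of all features, and they did not share a phase. Abcg8 and Abcg5, the subunits of the sterol exporter into bile, peaked in the light at ZT7.16 (5.11-fold, adjusted p = 3.15e-06) and ZT8.61 (3.80-fold, 0.000211). Fasn, the fatty acid synthase, peaked in the dark at ZT17.5 (3.39-fold, 0.000937) and was higher in the dark, as Nr1h3 was, with light minus dark at −1.25 ± 0.17 (SE, adjusted p = 8.54e-05). Light minus dark was 1.53 ± 0.16 for Abcg8 and 1.001 ± 0.207 for Abcg5, the opposite direction. Lpcat3, a phospholipid-remodelling enzyme, differed among the times (adjusted p = 0.0298) with no 24 h call, and Abca1, Abcg1, Mylip, Pltp and Scd1 passed none of these tests.

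**Figure D2:**
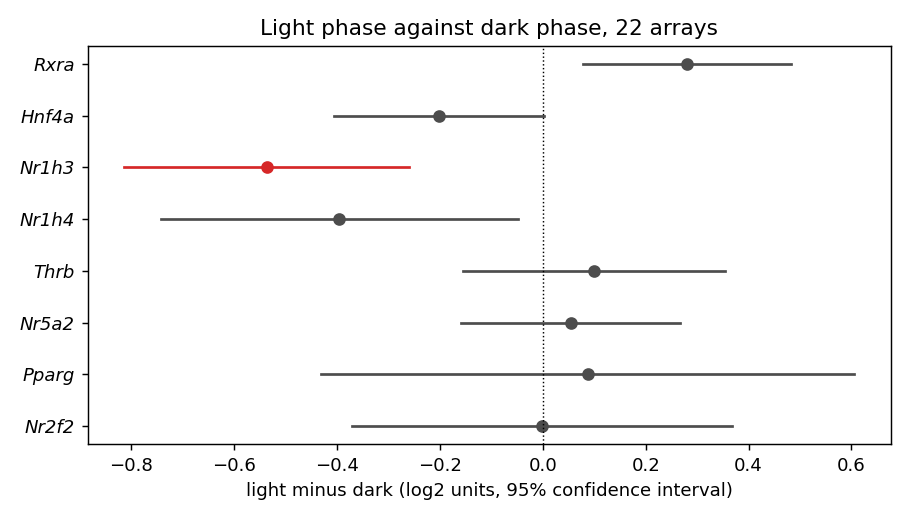
Light minus dark difference in log2 units (mean of ZT2, ZT6 and ZT10 minus mean of ZT14, ZT18 and ZT22) for each of the 8 measured receptor genes, with its 95% confidence interval from limma; red marks an adjusted p under 0.05. Nr1h3 is the only red interval, from −0.81 to −0.26, those of Rxra (above 0) and Nr1h4 (below 0) also leave out 0, and those of Hnf4a, Thrb, Nr5a2, Pparg and Nr2f2 include it.

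Nr1h4, the bile acid receptor, had the widest spread of time means, but no call. It measured 11.95, 12.11, 12.72 and 12.52 at ZT2, 12.88, 11.51 and 12.40 at ZT6, and 13.61, 13.37, 12.75 and 13.27 at ZT10. In the dark phase it measured 12.98, 12.45, 13.13 and 12.58 at ZT14, 13.58, 13.44 and 13.05 at ZT18, and 12.63, 12.54, 13.60 and 12.77 at ZT22. All arrays of ZT18 lay above all of ZT2 and ZT6, and all of ZT10 above all of ZT2, while the ZT6 arrays were far apart (SD 0.695, n = 3). The means of 12.26 at ZT6 and 13.36 at ZT18 differ 2.13-fold. The ZT6 arrays at 11.51 and 12.40 were Tff3-high, and no ZT18 array was. The F test among times gave an adjusted p of 0.0608 and the 24 h test 0.127 with a peak at ZT15.7 ± 1.2 h (limma). Nr1h4 passed the test among times without ZT6a (0.0203), ZT10c (0.0442) or ZT22c (0.0385). It also passed when only features above the median level were tested (0.0367), with a trended, robust prior (0.0408) and with array weights (0.0218), and not without the 5 Tff3-high arrays (0.113). Light minus dark was −0.40 ± 0.17 (SE, adjusted p = 0.189).

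Of 6 measured FXR targets, 3 were called for a 24 h rhythm, against 7.62% of all features. Nr0b2, which encodes the corepressor SHP, itself a nuclear receptor without a DNA-binding domain, was highest at ZT2 (12.57 ± 0.49) and lowest at ZT10 (9.18 ± 0.98), a fitted 5.87-fold span with a peak at ZT0.614 (adjusted p = 0.0019). The bile salt export pump Abcb11 and the stress-response gene Osgin1 peaked in the early light as well. Abcb11 did so at ZT2.17 with a 3.48-fold span (adjusted p = 1.43e-09) and Osgin1 at ZT3.005 with a 6.35-fold span (0.000906). All 3 had higher means at ZT2 than at ZT10, whereas Nr1h4 measured 13.25 ± 0.36 at ZT10 and 12.325 ± 0.36 at ZT2, a pair that was not tested on its own. Abcb11, Osgin1 and the phospholipid exporter Abcb4 were the 3 called in the light and dark contrast, each higher in the light. The organic solute transporter genes Slc51a and Slc51b (means of 3.73 and 4.99) passed no test.

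Thrb, the main thyroid hormone receptor of hepatocytes, passed no test over time. It measured 10.82, 10.92, 10.85 and 10.57 at ZT2, 11.14, 10.47 and 10.90 at ZT6, and 10.53, 10.35, 10.79 and 11.10 at ZT10. In the dark phase it measured 10.25, 10.13, 10.79 and 10.14 at ZT14, 11.02, 11.13 and 10.90 at ZT18, and 10.37, 10.49, 10.76 and 11.08 at ZT22. Every ZT18 array lay above every ZT14 array, and the means differ 1.61-fold, but the F test among times gave an adjusted p of 0.315 and the 24 h test 0.647 (limma). The 95% interval of light minus dark ran from −0.155 to 0.355. Thrb was the 1 of 8 members that measured lower in every Tff3-high array than in every other array of the same time at ZT6, ZT14 and ZT22, a pattern shown by 3.48% of named genes. Those arrays were 10.47 and 10.90 at ZT6, 10.13 and 10.14 at ZT14, and 10.37 at ZT22. Nr1h4 and Nr2f2 were lower in this way at 2 of the 3 times. In the other direction, Hnf4a was higher at 2 of the 3 times but lower at 1. Pparg was higher at 1 time and lower at 1, and Nr2f2 was higher at 1. No member was higher at all 3, a pattern shown by 4.89% of named genes. The share of named genes set apart at 1 or 2 of the 3 times was not counted. The arrays were picked by a measured value, so this is no test.

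Of 8 measured thyroid hormone targets, 4 were rhythmic, against 7.62% of all features, and they peaked at different times. Klf9, a transcription factor, was highest in the light, with means from 11.48 to 11.71 against 9.465 at ZT14 (4.07-fold span, ZT4.21, adjusted p = 0.000251). Gpd2, the mitochondrial glycerophosphate dehydrogenase, peaked at ZT8.62 (2.08-fold, 0.00664). The lipogenic gene Thrsp peaked at ZT15.9 and Cpt1a at ZT10.2. Dio1, the deiodinase that activates thyroxine, differed among times (adjusted p = 0.042) with no 24 h call, and Bcl3, Hr and Me1 passed none of the tests.

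Pparg, best known as the adipocyte regulator, varied widely between livers of 1 time and passed no test over time. Its arrays ran from 6.80 in ZT22b to 9.50 in ZT6a, with a median of 8.24 over all 22. At ZT22 the arrays measured 9.0, 6.80, 8.0 and 8.54 (SD 0.949), and at ZT6 they measured 9.50, 8.63 and 7.57 (SD 0.967). The time means ran from 7.865 at ZT14 to 8.74 at ZT18, a 1.84-fold difference, with overlapping arrays. The 24 h test gave an adjusted p of 0.989 with a fitted span of 1.06-fold, and the test among times 0.677 (limma). The 95% interval of light minus dark, from −0.432 to 0.605, still holds differences of either sign. Of 6 measured PPARγ targets limma called 0 for a 24 h rhythm, against 7.62% of all features, with 2 at an unadjusted p under 0.05. The lowest adjusted p were those of the lipid droplet genes Plin4 (0.128) and Cidec (0.177, a fitted 4.08-fold span).

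Hnf4a differed among the 6 times, while its 24 h cosine fit missed the threshold. It measured 12.70, 12.90, 12.61 and 13.04 at ZT2, 13.13, 13.24 and 13.41 at ZT6, and 13.74, 13.30, 13.24 and 13.14 at ZT10. In the dark phase it measured 13.48, 13.88, 13.65 and 13.67 at ZT14, 13.08, 13.00 and 13.13 at ZT18, and 13.10, 13.29, 13.48 and 13.29 at ZT22. The ZT2 arrays lay below all arrays of ZT6, ZT10, ZT14 and ZT22, and the ZT14 arrays above all of ZT2, ZT6 and ZT18. The mean ran from 12.81 ± 0.19 at ZT2 to 13.67 ± 0.16 at ZT14 (SD, n = 4 each), a 1.81-fold difference, and stood at 13.07 ± 0.07 at ZT18 (n = 3). The F test among times passed (limma, adjusted p = 0.0208). So 2 of 8 members, Hnf4a and Rxra, were called there, against 6.14% of all features and 11.2% of those above the median level. The 24 h test just missed (adjusted p = 0.0581, 1.48-fold, peak at ZT13.4 ± 1.1 h). It passed without ZT10d (0.0472), ZT18b (0.0465) or ZT22c (0.0351), and omitting any other single array left it uncalled. The call among times was lost without ZT2a (0.062), ZT2c (0.0643), ZT14b (0.0634), ZT14d (0.0505) or the 5 Tff3-high arrays (0.13).

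Hnf4a has 2 start regions, known as the promoters of the liver form (P1, downstream) and of a form known from pancreas (P2, upstream). Its single feature does not tell the forms apart, so both windows are shown, the upstream one at chr2:163506607-163506906 (forward strand) and the downstream one at chr2:163546905-163547204 (forward strand). They hold 54.0% and 57.3% G and C with 4 CpG each, and none of the letters searched.

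Hnf4a upstream start: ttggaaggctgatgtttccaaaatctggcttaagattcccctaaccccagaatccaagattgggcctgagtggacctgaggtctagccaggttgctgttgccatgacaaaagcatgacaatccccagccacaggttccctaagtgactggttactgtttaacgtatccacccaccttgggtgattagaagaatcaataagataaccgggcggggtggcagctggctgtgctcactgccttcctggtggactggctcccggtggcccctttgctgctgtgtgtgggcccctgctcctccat

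Hnf4a downstream start: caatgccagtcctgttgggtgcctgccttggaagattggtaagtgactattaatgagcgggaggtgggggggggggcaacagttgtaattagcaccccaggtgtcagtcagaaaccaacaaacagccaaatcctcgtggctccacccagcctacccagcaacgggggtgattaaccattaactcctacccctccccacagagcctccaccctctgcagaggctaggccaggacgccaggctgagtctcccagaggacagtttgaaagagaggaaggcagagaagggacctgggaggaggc

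Of 9 measured HNF4α targets, Cyp8b1 was the 1 called for a 24 h rhythm, against 7.62% of all features. This sterol hydroxylase of bile acid synthesis, also a target of LRH-1, was lowest at ZT14 (11.10 ± 1.51), the time when Hnf4a was highest, and highest at ZT18 (13.71), with a fitted 3.66-fold span (adjusted p = 0.0314). The secretory genes Apoa2, Apob, Apoc3, F7 and Ttr, the urea cycle gene Otc, the lipid transfer protein Mttp and the bile acid importer Slc10a1 passed no test, with adjusted p from 0.267 for Apoc3 to 0.95 for Apob in the 24 h test.

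Nr5a2 had the narrowest range of arrays among the 8 members. Its 22 arrays ran from 12.24 to 12.89 with a median of 12.51, and its time means from 12.395 at ZT10 to 12.71 at ZT6, a 1.25-fold difference. The F test among times gave an adjusted p of 0.729 and the 24 h test 0.56 (limma). The 95% interval of light minus dark, from −0.159 to 0.267, bounds that difference more tightly than in Pparg. Of 3 measured LRH-1 targets 2 were rhythmic, against 7.62% of all features. These were Nr0b2 and Cyp8b1, both described above as targets of FXR or HNF4α too, while the lipoprotein receptor Scarb1 was not called (adjusted p = 0.599).

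Nr2f2 passed no test over the day. Its arrays ran from 10.73 in ZT2c to 12.52 in ZT10c with a median of 11.805, and the 4 ZT2 arrays alone spanned 10.73 to 12.12. The F test among times gave an adjusted p of 0.582, the 24 h test 0.745, and light minus dark was 0.00 ± 0.18 (SE). Stellate cells and endothelium also make Nr2f2. The summed level of 7 stellate markers had time means from 14.06 at ZT10 to 14.87 at ZT22. It follows 1 gene, Dcn (14.005 at ZT10 and 14.83 at ZT22), whose mean of 14.405 lies far above that of the next marker, Lrat (8.45). The summed level of 8 sinusoidal endothelial markers had time means from 12.86 at ZT14 to 13.51 at ZT22. Nr2f2 was highest at ZT10 (11.99) and lowest at ZT18 (11.35).

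No member was called for a 12 h component. Limma called 0 of 8, with 0 at an unadjusted p under 0.05, where 0.018% of all features were called. The largest 12 h amplitudes were 0.39 in Pparg and 0.30 in Nr1h4 (adjusted p = 0.744 and 0.682). The median fitted 24 h span of the 8 members was 1.36-fold, beside 1.24-fold over all features and 1.29-fold over the features above the median level, of which 13.6% were called for a 24 h rhythm. A count of 1 in 8 for the rhythm is close to these shares.

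**Figure D3:**
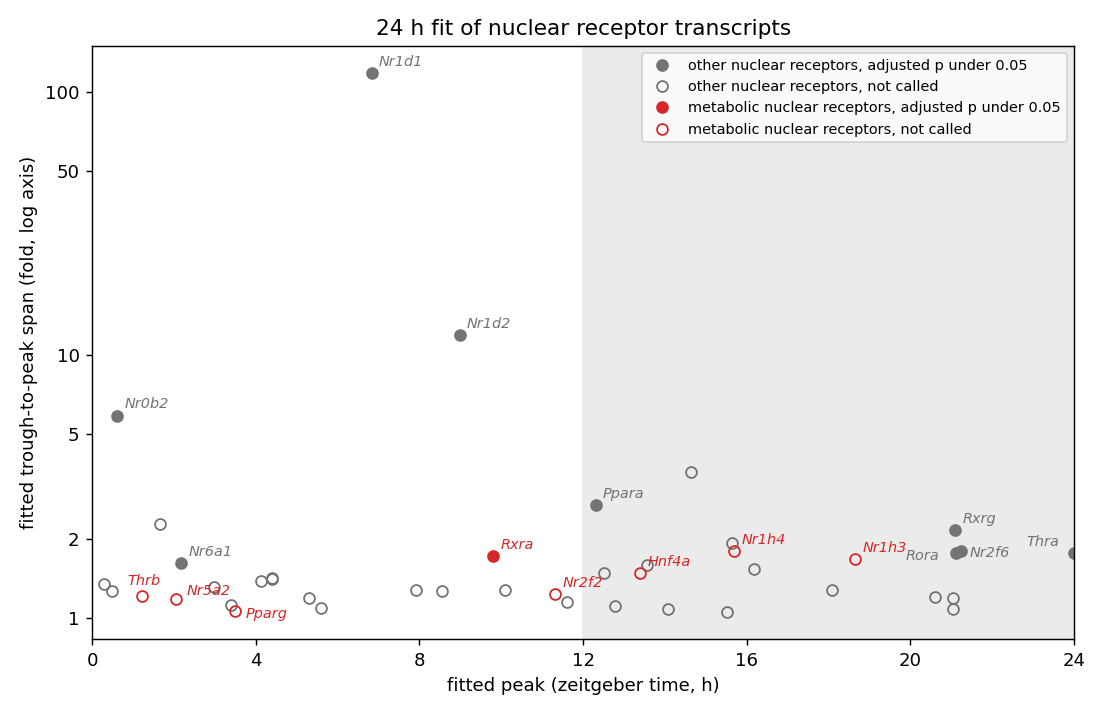
Fitted trough-to-peak span (fold, log axis) against fitted peak time (zeitgeber time in hours) for the 8 metabolic receptors (red) and 35 other nuclear receptors (grey); filled points had an adjusted p under 0.05 in the 24 h test, and grey marks the dark phase. Rxra is the filled red point, at ZT9.80 with 1.72-fold, while the clock receptors Nr1d1 and Nr1d2 stand at 118-fold and 11.9-fold. The SE of the peak time of the open red points ran from 0.95 h in Nr1h3 to 15.9 h in Pparg.

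Of the other 35 measured nuclear receptors 9 were called for a 24 h rhythm and 11 for any difference among times. Over all features the shares were 7.62% and 6.14%. The close relatives of several members were among them. Rxrg, a dimer partner like Rxra, peaked in the dark at ZT21.1 ± 0.65 h (2.15-fold, adjusted p = 0.000821), and Rxrb was not called (0.496). Thra peaked at ZT23.99 ± 0.79 h (1.76-fold, 0.00274), whereas Thrb was not called. Ppara, the fasting receptor of hepatocytes, peaked at ZT12.3 (2.68-fold, 0.00124), whereas Pparg was not. Whether relatives differ in rhythm was not tested. Nr2f6, an orphan relative of Nr2f2, was rhythmic too (1.79-fold, 0.0116), as were Nr6a1 (1.61-fold, 0.0261), Nr0b2, Rora, Nr1d1 and Nr1d2. Nr1i3, Esr1 and Nr2c1 differed among times without a 24 h call (adjusted p = 0.0179, 0.0367 and 0.0159).

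Of the cofactors that receptors recruit, limma called 0 of 17 for a 24 h rhythm, 4 of them having an unadjusted p under 0.05. The nearest was the coactivator Ppargc1b (1.73-fold, ZT7.97, adjusted p = 0.0568), followed by the corepressor subunits Tbl1x (0.139) and Tbl1xr1 (0.141). Of 7 ERRα targets 2 were called, Pdk4 and Cs, the citrate synthase (1.49-fold, ZT23.7, adjusted p = 0.0191). Of 4 PPARδ targets, which PPARα shares, 3 were called, Pdk4, Cpt1a and the lipid droplet protein Plin2 (2.88-fold, ZT1.71, adjusted p = 3.37e-05), and Angptl4, the lipase inhibitor, was higher in the light by 0.999 ± 0.246 (adjusted p = 0.0169). Over all features 7.62% were called for a 24 h rhythm, and 13.6% of those above the median level. Several targets stand in more than 1 list, and the lists are not matched to the background in level.

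Among cell type markers, 1 of 8 hepatocyte genes was called for a 24 h rhythm (Tat, the tyrosine aminotransferase), 1 of 9 Kupffer cell genes (Cd5l, 2.04-fold, adjusted p = 0.036) and 1 of 8 sinusoidal endothelial genes (Stab2, a scavenger receptor, 1.71-fold, 0.0353). Limma called 0 of 7 stellate cell, 0 of 5 cholangiocyte and 0 of 5 adipocyte genes, with 1 gene of each list at an unadjusted p under 0.05. The share over all features was 7.62%. The summed hepatocyte markers had time means between 21.94 at ZT6 and 22.06 at ZT18. What part the mix of cells has in the results on the receptors was not tested.

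**Figure D4:**
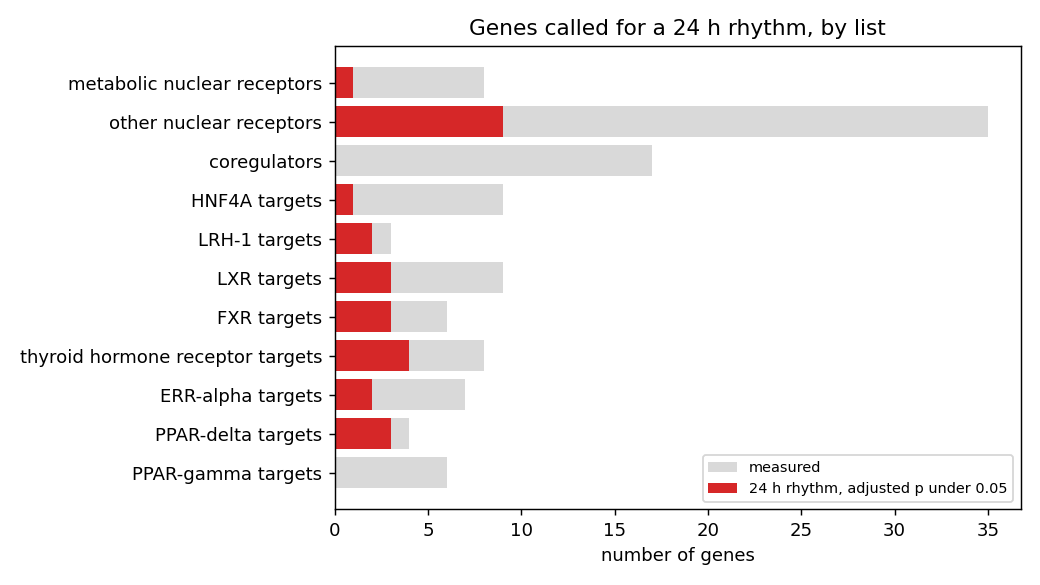
Number of genes measured (grey) and number called for a 24 h rhythm at an adjusted p under 0.05 (red) in the metabolic receptors and in each list of other receptors, cofactors and targets. The bar of the receptors has 1 of 8 in red, that of other receptors 9 of 35, and the cofactor and PPARγ target bars have no red.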

How the data were processed

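Per the labels' protocols, TRIzol RNA (100 ng per liver) was labelled with the WT Plus kit for Clariom S arrays. The authors deposited 1 value per feature and array, from 1.68 to 19.87, taken here as log2 because of this range. Neither the base nor the summarization, normalization and software is given in the sources used here. Array medians (5.28 to 5.36) and lower quartiles (3.67 to 3.91) are nearly equal between arrays, as after scaling, and genes are not centred. Arrays correlated between 0.976 and 0.994, with 0 identical pairs. There are no read depths, and the number of arrays limits the precision.

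Of 22206 features 19572 had 1 symbol and 2634 none. Where several features share a symbol, the brightest stands for the gene. R 4.3.3, limma 3.58.1 and data.table (1.17.8) were used. Each model (lmFit, then eBayes) took in every feature, unfiltered, with Benjamini-Hochberg adjustment and a threshold of 0.05, and was checked on simulated data. The tests were the 24 h cosine and sine, any difference among the 6 time means, light minus dark from those means, and a 12 h cosine and sine beside the 24 h terms. Each array was taken as 1 mouse, and the p-values cover only the spread among these arrays, part of which may be technical. No pairing by the letters of the arrays was seen on average. Deviations from time means correlated by −0.009 on average in 51 pairs of the same letter (−0.236 to 0.226). In 150 other pairs the average was 0.003 (−0.242 to 0.255). Such averages could miss a weak or partial pairing.

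Named genes were all members, the 3 genes at most with the lowest adjusted 24 h p from each of 16 lists (other receptors, cofactors, targets, cell type markers), and the 3 genes most correlated with each rhythmic member. Further list members named in the text were chosen after their values were seen. The members and lists were chosen with earlier results of these data known. Promoter windows are RefSeq's (GRCm38.p6). Summed marker levels are log2 of the summed linear values, so the brightest markers weigh most. Alternatives are listed with their effects in the closing section.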

Additional observations from a re-analysis of the deposited data

Results flagged for a closer look

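In 32 groups of 4 arrays (8 members at 4 times), 1 array lay far from the others of its time. Nr1h3 measured 11.14 in ZT2d, where the next lowest ZT2 array measured 12.06, a gap of 0.86 of the whole range. Chance alone sets about 1 in 20 such groups apart. Without ZT2d the light minus dark difference of Nr1h3 was −0.45 in place of −0.54 and stayed called (limma, adjusted p = 0.0214).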

How the results depend on the processing

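The call of Rxra for a 24 h rhythm held under all 15 alternatives (adjusted p from 0.000166 to 0.0254) and all 22 omissions of an array. The number of members called for a 24 h rhythm went from 1 to 3 among features above the median level and with a trended, robust prior (Hnf4a and Nr1h3 added), and to 2 with arrayWeights (Nr1h3) and without ZT6 (Nr1h3), ZT14 (Nr1h4), ZT18 (Hnf4a) or ZT22 (Hnf4a). It ranged from 1 to 3 over omissions of single arrays. Members called among times went from 2 to 3 among features above the median level, with the trended, robust prior and with arrayWeights (Nr1h4 added, adjusted p = 0.0367, 0.0408 and 0.0218). They went to 0 at a threshold of 0.01 and to 1 without the 5 Tff3-high arrays, and ranged from 1 to 3 over single omissions. Members called between light and dark went from 1 to 2 among brighter features (Rxra, adjusted p = 0.0433), to 0 at 0.01 and to 0 without the 5 Tff3-high arrays, with a range of 1 to 2 over single omissions (Rxra without ZT6b, 0.0437). Quantile normalization, centring and the replicate block changed no member's call. With the replicate block 1, 2 and 1 members were called in these tests. In the 24 h test, adding 12 h terms and leaving out ZT2 or ZT10 changed no member's call either. The same held there for the threshold of 0.01 and for leaving out the 5 Tff3-high arrays.

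Sign or phase turned only in members without a call. Light minus dark of Nr2f2 was 0.063 with quantile normalization, 0.00 with centring and 0.13 without the 5 Tff3-high arrays, and over single omissions it ranged from −0.06 to 0.094 (Pparg from −0.069 to 0.253). The fitted peak moved by over 6 h in Pparg with arrayWeights (span 1.12-fold), without the 5 Tff3-high arrays (1.20-fold), without ZT6 (1.19-fold) and without ZT14 (1.34-fold), and over single omissions its span ranged from 1.02-fold to 1.29-fold. It moved so in Thrb without ZT14 (1.10-fold). Why these moved was not tested. Over all features the calls at a threshold of 0.01 were 830 (24 h), 668 (among times), 459 (light minus dark) and 1 (12 h), against 1691, 1363, 1170 and 4. Between light and dark 617 were called with the 5 Tff3-high arrays left out. The 12 h count ranged from 1 to 15 over the alternatives and from 2 to 16 over single omissions.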
